A study of Mus musculus with 15 samples.

Results

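Knee joint synovium of mice with collagen-induced arthritis (CIA) and moderate swelling was compared with that of CIA mice with mild swelling, gene by gene. The samples were chosen by their titles, which grade joint inflammation, and the source names give the same grades as swelling. They make up 6 of the 15 arrays of the study, with 3 arrays of moderate and 3 of mild swelling. The other 9 are 3 CIA arrays with no swelling, 3 with severe swelling and 3 of healthy naive mice, and all 15 entered the estimate of the spread between replicates. CIA follows immunization against type II collagen, the main collagen of cartilage, and serves as a mouse model of rheumatoid arthritis. Per the labels, both groups shared the same protocol, with 100 µg of type II collagen and FCA on day 0, and an intraperitoneal boost of 100 µg on day 21. The same protocol text also stands on the naive samples, which were taken as healthy from their titles and source names alone. Strain, age, sex and the day of sampling are not given in the sources used here, so a difference in grade cannot be told apart from a difference in the time since onset. The labels do not state that the 3 replicates of a group came from different animals, so the spread behind each p-value may be technical.

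The synovium is the thin tissue that lines the joint cavity. Its lining holds macrophages and specialised fibroblasts that secrete lubricating molecules, and beneath them lie sublining fibroblasts, vessels and fat. In arthritis this tissue thickens into pannus, an invasive mass of fibroblasts, macrophages and new vessels that degrades cartilage through matrix metalloproteinases and bone through osteoclasts. Osteoclasts are bone-resorbing cells that form from macrophage precursors under the cytokine RANKL. A knee dissection can also carry adjoining skeletal muscle, tendon, fat, cartilage and bone.

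Of 14310 genes tested, 459 (3.21%) were higher and 484 (3.38%) lower in moderate than in mild swelling, at a Benjamini-Hochberg adjusted p under 0.05 with limma, or 943 in all (6.59%). Joint-destroying proteases, osteoclast genes, fibroblast and cartilage matrix genes and part of the interferon response were among the higher genes, while genes of mitochondrial respiration and sugar metabolism were among the lower ones. A log2 difference of at least 1, which is a change of 2-fold or more on the scale used, was reached by 133 higher and 126 lower genes. The 3 moderate arrays lay wholly above the 3 mild arrays for 454 of the 459 higher genes and wholly below them for 476 of the 484 lower genes. Over all genes tested, moderate arrays lay wholly above mild ones in 14.2% and wholly below in 12.5%. The 12 largest differences in each direction, described below, were taken only from genes without overlap. For those genes the lack of overlap was set by the rule and is no further result. Each gene was represented by 1 probe set, the signal is the authors' MAS5 intensity, and differences are given as moderate minus mild on the log2(signal + 16) scale with the standard error (SE) of limma, so the change of dim genes is understated.

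The mild arrays spread more widely than the moderate ones along the main axis of variation. On the first principal component, which held 70.2% of the variance, moderate arrays scored 51.1, 55.9 and 44.9, and mild arrays scored 18.5, -7.3 and 35.7. Every moderate array thus lay above every mild array. Severe arrays scored between 41.4 and 62.7, a range that holds all 3 moderate scores, and arrays with no swelling scored between -68.3 and -47.9. Mild replicate 2 stood apart toward the unswollen joints, and mild replicate 3 lay nearest to moderate swelling. Among the 943 called genes, mild replicate 2 was the mild array farthest from the moderate mean in 807 (85.6%), against 61.1% of all genes.

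**Figure D1:**
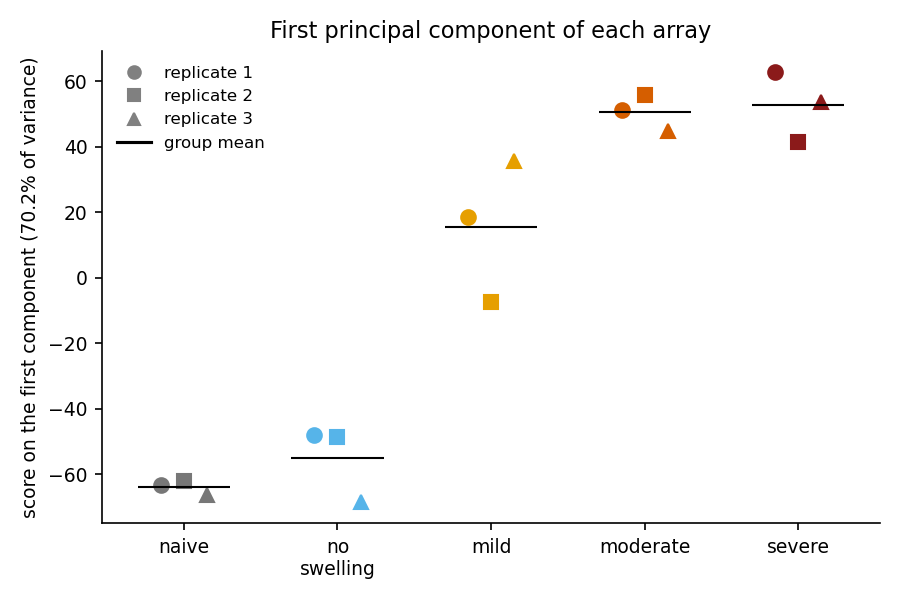
Score of each of the 15 arrays on the first principal component (70.2% of the variance, no unit), by swelling group in order of severity, with shapes for replicates and bars for group means. The 3 moderate arrays (44.9 to 55.9) lie above the 3 mild arrays (-7.3 to 35.7) and inside the severe range.

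How many genes were called depended on which arrays entered. Without mild replicate 2, 78 genes were higher (0.545%) and 118 lower (0.825%), and without moderate replicate 2 the numbers were 79 and 155. They were 1056 and 953 without mild replicate 3, 308 and 289 without moderate replicate 1, 174 and 227 without moderate replicate 3, and 194 and 200 without mild replicate 1. Without mild replicate 2, 191 of the 943 called genes were still called. All 943 kept the sign of their difference. For the 454 higher and 476 lower ones whose groups did not overlap, leaving out an array cannot change the sign. With the spread estimated from the 6 moderate and mild arrays alone, 7 genes were higher and 21 lower, so most calls rest on the spread shared with the other 3 groups. With every probe set tested by itself, 667 of 31485 were higher (2.12%) and 820 lower (2.6%). Scaled on hybridization controls, 92 genes were higher and 138 lower. Of the 81 called genes that the naming rule picked, 29 stayed called in each of the 6 fits that left out 1 moderate or mild array. These 6 fits do not cover the other settings. Of the 81, 71 lost the call with only the moderate and mild arrays in the fit and 41 on hybridization controls. Where a call of these 81 was lost in such a fit, with arrays left out 1 at a time, this is given with the gene.

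**Figure D2:**
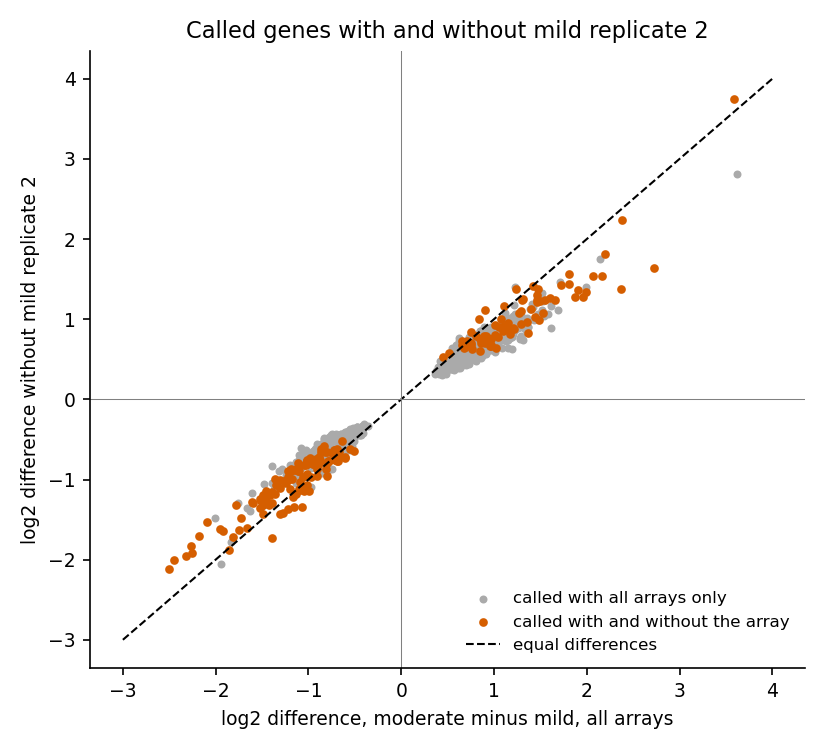
Log2 difference, moderate minus mild, of the 943 called genes with all arrays (horizontal) and without mild replicate 2 (vertical); orange points were called both ways and the dashed line marks equal values. All points keep their sign, which is fixed in advance for genes whose groups do not overlap. The median size of the difference was 0.78 with all arrays and 0.63 without that array.

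The array signals of median genes were alike, at 38.7 to 45.1 intensity units on moderate and 41.6 to 44.9 on mild arrays. With 3 arrays a group, precision is limited by their number. Fibroblast markers of the synovium summed to 10740 to 15280 units over 7 genes in moderate swelling, against 9538 to 12090 in mild swelling, so the labelled tissue was represented. Skeletal muscle was measured alongside it: 7 muscle markers summed to 25470 to 41400 units on moderate and 32400 to 39840 on mild arrays. The 6 macrophage markers summed to 9642 to 11830 units in moderate and 8383 to 11000 in mild swelling, and the 4 neutrophil markers to 6232 to 9337 in moderate and 3960 to 8410 in mild swelling. The 3 adipocyte markers summed to 3640 to 4470 units in moderate and 3447 to 4798 in mild swelling. For these 5 types the moderate and mild ranges overlapped. In bulk tissue, fewer cells of a type and less RNA per cell cannot be told apart. The Actb 3' to 5' signal ratio, a sign of RNA quality, was 1.19 to 1.27 on moderate and 1.13 to 1.20 on mild arrays, and its part in the results was not tested.

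Matrix-degrading proteases included the gene with the largest increase. Of 16 tested matrix metalloproteinase (MMP) and ADAMTS genes, 5 were higher (31.2%, against 3.21% of all genes) and 0 lower. The median difference was 0.77, against 0.01 over all genes. Mmp13, the collagenase that cleaves type II collagen, had signals of 2914, 4768 and 3572 in moderate swelling, against 215, 82.2 and 1169.8 in mild swelling. The groups did not overlap, and mild replicate 3 lay between the other mild arrays and the moderate ones. Its difference was 3.62 ± 0.73 (SE, 3 arrays a group; adjusted p = 0.0119 with limma), and the call was lost without mild replicate 2 (2.82, adjusted p = 0.0571) or without moderate replicate 2 (3.44, adjusted p = 0.052). Mmp14, a membrane-bound protease that lets cells invade collagen, gave 2222, 3293 and 2759.6 units in moderate and 897, 689 and 1649.7 in mild swelling. It rose by 1.42 ± 0.28 (adjusted p = 0.0108), a call lost without mild replicate 2 (1.15, adjusted p = 0.0539) or without moderate replicate 2 (1.28, adjusted p = 0.0513). Adamts12, which cleaves the cartilage protein COMP, gave 428, 438 and 436 units in moderate and 202, 135 and 300.1 in mild swelling, a difference of 1.04 ± 0.21 (adjusted p up to 0.047 when 1 array was left out). Its 3 moderate values lay close together and well above the mild ones. Mmp9 (log2 difference 1.71 ± 0.44), a gelatinase of neutrophils and osteoclasts, and Mmp23 (0.69 ± 0.19) were the other 2 called members. The Mmp9 call was lost without any 1 moderate array or mild replicate 1 or 2 (1.46 to 1.81, adjusted p 0.0663 to 0.162), and that of Mmp23, which is named here to complete the count, had an adjusted p of 0.154 without mild replicate 2. Mmp3, or stromelysin, and Mmp2 did not pass, at 1.23 ± 0.37 (adjusted p = 0.0597) and 0.86 ± 0.31 (adjusted p = 0.103). With 1 array left out, the number of members called higher was 1 without moderate replicate 2 or mild replicate 2, 8 without mild replicate 3 and 3 in the other 3 fits.

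The Mmp13 promoter is shown because this gene had the largest increase and because its control through AP-1, a dimer of Fos and Jun proteins induced by inflammatory cytokines, is well described. The sequence is the RefSeq window from 250 bases before to 50 after the gene's start on GRCm38.p6 (chr9:7272264-7272563, plus strand), and capitals mark the match to the AP-1 motif TGANTCA, searched on both strands.
Mmp13: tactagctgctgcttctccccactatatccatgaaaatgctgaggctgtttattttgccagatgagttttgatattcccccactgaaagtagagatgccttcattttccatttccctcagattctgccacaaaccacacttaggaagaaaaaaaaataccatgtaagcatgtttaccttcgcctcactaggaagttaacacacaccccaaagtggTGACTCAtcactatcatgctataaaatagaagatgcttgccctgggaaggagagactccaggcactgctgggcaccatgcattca
The motif was found in 3 of 12 promoters (25%) of the 10 tested MMP and ADAMTS genes with an entry, those of Mmp13, Mmp3 and Mmp12, and in 7.81% of 32851 promoters of the same length. Only Mmp13 of these 3 was called. A match is a description of these letters and not evidence of binding.

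Part of the genes of fibroblast matrix and of fibroblasts rose in moderate swelling. Of 29 tested fibrillar collagen and fibroblast matrix genes, 7 were higher (24.1%, against 3.21% of all genes) and 0 lower. Of the 29 differences 27 were positive, with a median of 0.73 (0.35 without mild replicate 2). Mfap4, a microfibril-associated glycoprotein, had signals of 840, 1044 and 658 in moderate and 292, 12.5 and 226 in mild swelling. Mild replicate 2 was far below the other mild arrays, and the groups did not overlap. The difference was 2.72 ± 0.61 (adjusted p = 0.0177), or 1.64 without mild replicate 2, and the call was lost without moderate replicate 2 (2.56, adjusted p = 0.0738). Col16a1, a fibril-associated collagen, gave 869.8, 1218 and 1016 units in moderate against 392, 221 and 682 in mild swelling, a difference of 1.35 ± 0.28 with no overlap, and Col14a1, another such collagen, differed by 1.17 ± 0.26. The Col16a1 call was lost without moderate replicate 2 (1.23, adjusted p = 0.0606), and the Col14a1 call without moderate replicate 2 or 3 or mild replicate 2 (0.77 to 1.15, adjusted p 0.0572 to 0.0802). Thbs2, Fmod, Ogn and Eln completed the 7, with differences between 0.91 and 1.61. The Fmod call was lost without any 1 moderate array or mild replicate 1 or 2 (0.75 to 1.46, adjusted p 0.0547 to 0.193). The main fibrillar collagens did not pass, with Col1a1 at 0.20 ± 0.30 and Col3a1 at -0.11 ± 0.19 (adjusted p = 0.737 and 0.783). Leaving out 1 array at a time, 0 to 16 members were called higher, with 0 called without moderate replicate 2 and 16 without mild replicate 3.

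Cdh11, the cadherin that holds lining fibroblasts together, had signals of 1362, 1516 and 1719.9 in moderate swelling, against 511, 138 and 757 in mild swelling. Every moderate array was above every mild array, and the difference of 1.96 ± 0.39 stayed called in all 6 fits (adjusted p up to 0.0437 when 1 array was left out). Fap, a serine protease of activated fibroblasts, differed by 1.34 ± 0.31, and Pdgfrb, a growth factor receptor of sublining and perivascular fibroblasts, by 1.08 ± 0.23. The Pdgfrb call was lost without moderate replicate 2 or 3 or mild replicate 2 (0.75 to 1.06, adjusted p 0.0549 to 0.0588). Htra1, a secreted protease, was the fourth of 4 higher members among 18 tested lining and sublining fibroblast genes, at 0.85 ± 0.23. Higher members made up 22.2% of that list, against 3.21% of all genes, and the 1 lower member 5.56%, against 3.38%. Fap and Htra1 had adjusted p of 0.061 and 0.203 without mild replicate 2. Clic5, an intracellular channel protein expressed by lining fibroblasts, moved the other way, with 213, 223 and 194 units in moderate and 649, 808 and 366 in mild swelling. It fell by 1.39 on the log2 scale and stayed called in all 6 fits (adjusted p up to 0.0274 when 1 array was left out). Its signals were higher still in naive joints, at 1043, 1021 and 1140.2 units. Prg4, the lubricin of the lining, had 5345, 8049 and 6948 units in moderate and 6280.1, 6448 and 7469 in mild swelling, a difference of -0.01 ± 0.23 (adjusted p = 0.991).

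**Figure D3:**
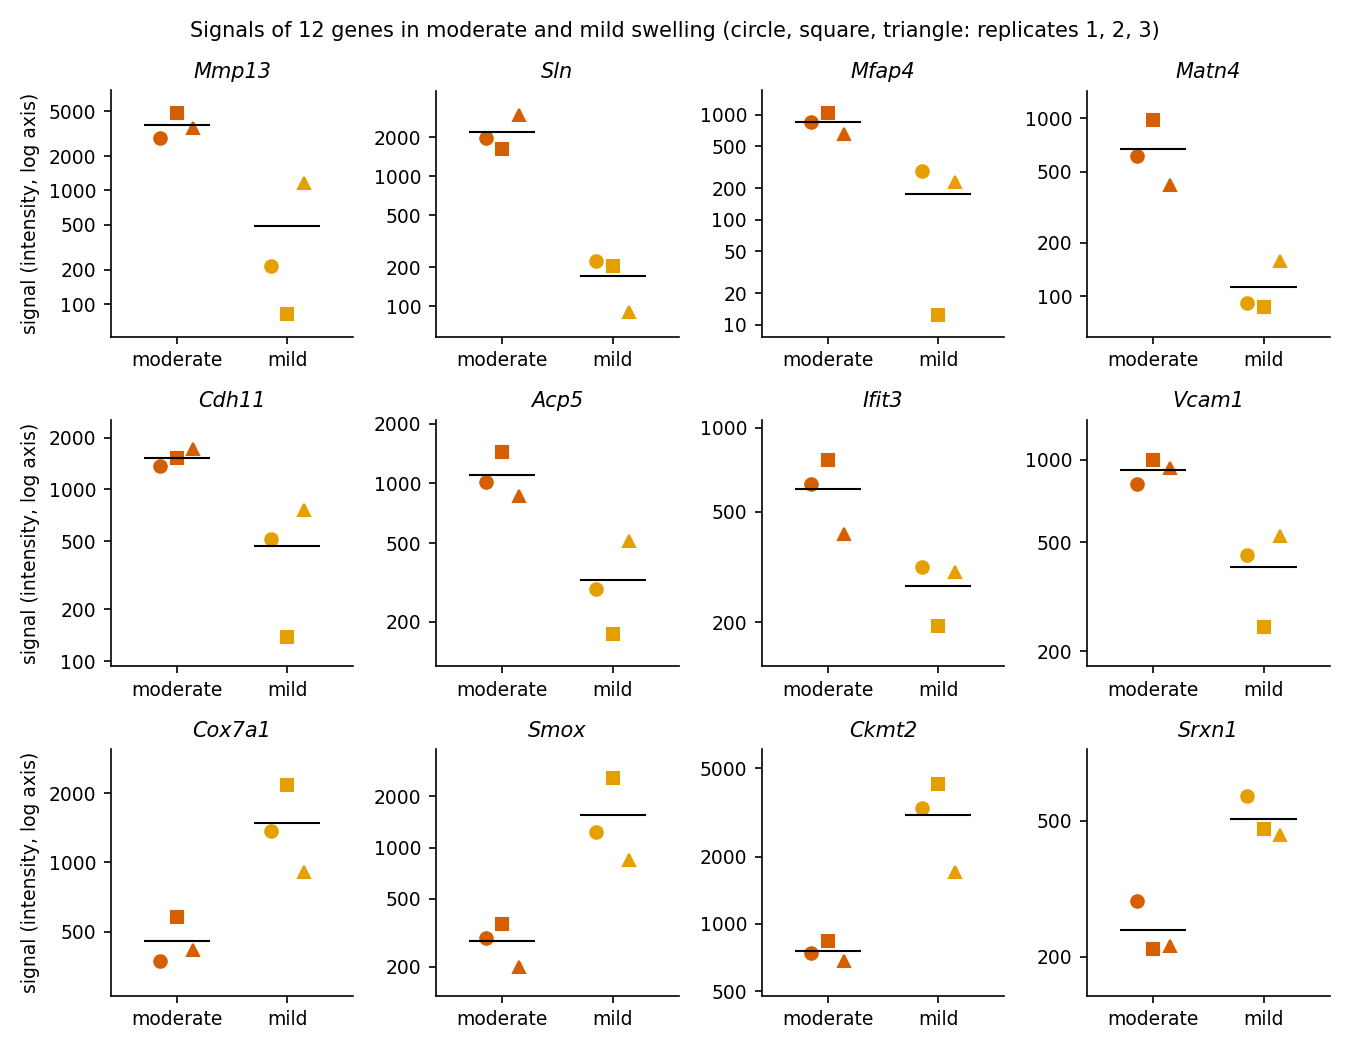
Signal (intensity units, log axis) of 12 genes on the 3 moderate arrays (left) and the 3 mild arrays (right), with shapes for replicates and bars for group means. The 12 genes were picked by hand from the named genes, and lack of overlap was a condition for those among the largest differences. In all 12 panels the groups do not overlap. In 10 of them mild replicate 2 is the mild array farthest from the moderate ones.

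Some cartilage and tendon genes rose as well. Of 12 tested cartilage genes, 4 were higher (33.3%, against 3.21% of all genes) and 0 lower, with a median difference of 1.003. Matn4, a matrilin of the extracellular matrix, gave 614, 976 and 420 units in moderate and 92.4, 87.3 and 158 in mild swelling, a difference of 2.38 ± 0.36 (adjusted p = 0.00332) that stayed called in all 6 fits. Col11a1, a minor fibrillar collagen of cartilage, gave 390.2, 610.3 and 707 units in moderate against 148, 56.3 and 280.2 in mild swelling and differed by 1.90 ± 0.35, again in all 6 fits. The lowest moderate value lay above the highest mild value for both genes. Chad, the cartilage protein chondroadherin, differed by 1.43 ± 0.28 and lost its call without moderate replicate 2 (1.11, adjusted p = 0.0506). Acan, the cartilage proteoglycan aggrecan, differed by 1.50 ± 0.42 with overlapping groups, and its adjusted p was 0.243 without mild replicate 2. Col2a1, the collagen used for immunization, had 129.7, 268 and 295 units in moderate and 67.1, 61.5 and 147 in mild swelling and did not pass (1.21 ± 0.40, adjusted p = 0.0768). Among 9 tested tendon and ligament genes 2 were higher (22.2%), Col14a1 and Fmod, which are also members of the fibroblast matrix list. All 9 differences were positive. Comp, a matrix protein of cartilage and tendon, differed by 1.50 ± 0.45 (adjusted p = 0.0594). Without moderate replicate 2, 2 cartilage genes were called and without mild replicate 3, 7. The 4 cartilage markers summed to 451 to 856 units on moderate and 173 to 514 on mild arrays, and the part of cartilage tissue in these values was not tested.

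Osteoclast genes showed the highest share of increases among the lists. Of 14 tested members 6 (42.9%) were higher and 0 lower, against 3.21% of all genes, and 13 differences were positive, with a median of 0.53. Acp5, the acid phosphatase TRAP by which osteoclasts are stained, had signals of 1013, 1447 and 864 in moderate swelling, against 293, 173 and 512 in mild swelling. The groups did not overlap, and the difference of 1.81 ± 0.35 (adjusted p = 0.01) lost its call without moderate replicate 2 (1.60, adjusted p = 0.0509). Atp6v0d2, a subunit of the proton pump with which osteoclasts acidify bone, gave 200, 161 and 163 units in moderate against 58.7, 44.2 and 89.2 in mild swelling and rose by 1.29 ± 0.21, called in all 6 fits. Dcstamp, the transmembrane protein needed for precursor fusion, gave 80, 74.9 and 47.3 units in moderate against 8.3, 26.1 and 25.3 in mild swelling, a difference of 1.24 ± 0.25 that lost its call without mild replicate 1 (0.98, adjusted p = 0.0516) or without moderate replicate 2 (1.16, adjusted p = 0.0588). All 3 genes were higher on every moderate array than on any mild array, as were 454 of the 459 higher genes. On the mild arrays Dcstamp lay below the 40th percentile of each array (27.7, 29.4 and 26.5), so the pseudocount of 16 bears on its difference. Under the settings that kept all moderate and mild arrays, the Dcstamp difference ran from 0.645 to 1.828. Ctsk, the bone collagen protease cathepsin K, Mmp9 and the proton pump gene Tcirg1 were the other called members, at 1.54, 1.71 and 0.72; Ctsk and Tcirg1 were named after their values were seen. Without moderate replicate 2, 1 member was called, without mild replicate 1 or 2, 3 members, and in the other 3 fits 4 to 6.

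Tnfsf11, which encodes RANKL, had 224, 184 and 199.9 units in moderate and 61.8, 45.8 and 161 in mild swelling, with no overlap. It was the only one of 12 tested proinflammatory cytokine genes called (8.33%, near the 6.59% of all genes), at 1.20 ± 0.29 (adjusted p = 0.0258). The call was lost without any 1 moderate array or mild replicate 1 or 2 (0.89 to 1.26, adjusted p 0.0694 to 0.148). Of 6 tested osteoblast and bone matrix genes 0 were called and 1 was higher at an unadjusted p under 0.05, which 23.7% of all genes reached. The list median was 0.10 and changed sign without moderate replicate 2 or mild replicate 3, on hybridization controls and with array quality weights. With the mean of probe sets, on hybridization controls or without moderate replicate 1, 1 member was called higher. Ibsp, a bone sialoprotein, differed most of the 6 and had 34.1, 153 and 82.1 units in moderate and 19.5, 17.5 and 32.3 in mild swelling (adjusted p = 0.0703), and its 1 other probe set was called higher. The 4 bone markers, which include Acp5 and Ctsk, summed to 3841 to 5678 units on moderate and 736.8 to 2314 on mild arrays. Moderate replicate 2 had 280 units of the osteocyte gene Dmp1, which lay under the signal filter, against 12 and 37.3 on the other moderate arrays and 9.7 to 13 on mild arrays. The same array was highest of the 6 for Ibsp, and the part of bone tissue on it in these results was not tested.

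Interferon-induced genes differed in the same direction throughout. Of 16 tested members 4 were higher at the threshold (25%, against 3.21% of all genes) and 0 lower. All 16 differences were positive, and the median was 0.74 (0.56 without mild replicate 2). Ifit3, an antiviral protein induced by type I interferon, had 630.2, 767 and 414 units in moderate swelling, against 315, 194 and 303 in mild swelling. The groups did not overlap, and the difference was 1.10 ± 0.22 (adjusted p = 0.0113). Gbp2, a guanylate-binding GTPase, gave 220.2, 326 and 229 units in moderate against 134, 78.7 and 137 in mild swelling, also with no overlap, and rose by 1.06 ± 0.23. The Ifit3 call was lost without mild replicate 2 (0.89, adjusted p = 0.0554) or without moderate replicate 2 (0.91, adjusted p = 0.0551), and the Gbp2 call without mild replicate 2 (0.84, adjusted p = 0.0884) or without moderate replicate 2 (0.90, adjusted p = 0.0819). Rsad2, the antiviral enzyme viperin, differed by 1.53 ± 0.39, but its lowest moderate value (172) lay below its highest mild value (204), and the call was lost without moderate replicate 1 or 2 or mild replicate 1 or 2 (1.14 to 1.46, adjusted p 0.0908 to 0.165). Usp18, a protease that restrains interferon signalling, was the fourth, at 0.73 ± 0.21, with an adjusted p of 0.212 without mild replicate 2. The highest moderate signal of all 4 genes was on moderate replicate 2. With 1 array left out, 0 to 9 members were called, and the count was 0 both without moderate replicate 2 and without mild replicate 2.

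The promoters of Ifit3, Gbp2 and Rsad2 are shown because they are the called interferon genes with a RefSeq entry. They cover the same window as for Mmp13, on GRCm38.p6 at chr19:34583279-34583578 (plus strand), chr3:142620413-142620712 (plus strand) and chr12:26456403-26456702 (minus strand). Capitals mark matches to the interferon-stimulated response element (ISRE), the site bound by interferon regulatory and STAT factors, written as GAAA, any 2 bases and GAAA, which is found here on the opposite strand.
Ifit3: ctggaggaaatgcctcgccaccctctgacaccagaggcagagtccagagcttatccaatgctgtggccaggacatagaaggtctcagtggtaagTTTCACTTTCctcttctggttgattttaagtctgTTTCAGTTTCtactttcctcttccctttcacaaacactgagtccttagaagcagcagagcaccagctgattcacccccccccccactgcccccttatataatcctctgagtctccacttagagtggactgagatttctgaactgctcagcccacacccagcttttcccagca
Gbp2: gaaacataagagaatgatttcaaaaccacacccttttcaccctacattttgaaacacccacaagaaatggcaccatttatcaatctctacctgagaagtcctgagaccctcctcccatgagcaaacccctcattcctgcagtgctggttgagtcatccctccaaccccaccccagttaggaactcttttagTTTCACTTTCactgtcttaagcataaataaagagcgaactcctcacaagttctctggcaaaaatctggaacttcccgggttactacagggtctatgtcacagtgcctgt
Rsad2: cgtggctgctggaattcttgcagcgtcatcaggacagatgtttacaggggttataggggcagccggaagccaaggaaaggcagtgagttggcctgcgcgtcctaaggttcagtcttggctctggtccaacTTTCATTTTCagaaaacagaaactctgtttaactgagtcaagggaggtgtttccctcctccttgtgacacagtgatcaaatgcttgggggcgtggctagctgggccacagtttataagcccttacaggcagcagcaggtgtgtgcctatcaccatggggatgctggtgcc
Ifit3 held 2 matches and the other 2 promoters 1 each. The motif was found, on either strand, in 8 of 15 promoters (53.3%) of the 12 tested interferon genes with an entry, against 3.44% of 32851 promoters of the same length. Among the 9 not called genes with an entry it was found in 5 of 12 promoters. The AP-1 motif was found in 3 of the 15 promoters, those of Ifit3, Gbp2 and Rsad2, with no overlap between matches of both motifs.

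Few genes of the leukocyte lists were called, where 6.59% of all genes were called in either direction. Of 20 tested macrophage markers, 9 MHC class II presentation genes, 17 cytokine receptors and antagonists and 15 Toll-like receptor and inflammasome genes, 0 were called with limma. At an unadjusted p under 0.05, which 23.7% of all genes reached, 1 macrophage marker, 0 MHC class II genes, 3 cytokine receptors and antagonists and 5 Toll-like receptor and inflammasome genes were higher and 0 lower. All 15 Toll-like receptor and inflammasome differences were positive, with a median of 0.32. The moderate arrays lay wholly above the mild ones for 5 members, against 14.2% of all genes. Of the 17 cytokine receptor and antagonist differences 14 were positive, with a median of 0.23. Without mild replicate 3, 3 cytokine receptors and antagonists, 2 Toll-like receptor and inflammasome genes and 1 macrophage marker were called higher. The macrophage median was 0.13, and it turned to -0.01 without mild replicate 2. Csf1r, the growth factor receptor of macrophages, had 2978, 3396 and 2685 units in moderate and 3049, 2779.5 and 3414 in mild swelling, with a difference of -0.03 ± 0.23. Of 20 tested chemokines 1 was lower (5%, near the 3.38% of all genes) and 0 higher. It was Ccl11, or eotaxin, which draws eosinophils, with 105, 86.4 and 89.3 units in moderate and 206, 172 and 151 in mild swelling, a difference of -0.80 ± 0.23 (adjusted p = 0.0487) whose call was lost without any 1 moderate array or mild replicate 1 or 2 (-0.88 to -0.69, adjusted p 0.076 to 0.155). Cxcl10, an interferon-induced chemokine for T cells, did not pass at 1.47 ± 0.48 (adjusted p = 0.0727). Of 17 tested alarmin and neutrophil granule genes 2 were higher (11.8%, against 3.21% of all genes), Mmp9 and Slpi, an inhibitor of neutrophil elastase. Slpi differed by 1.26 ± 0.34 with overlapping groups and lost its call without moderate replicate 1 or 2 or mild replicate 1 or 2 (0.97 to 1.34, adjusted p 0.0692 to 0.192). S100a8, a subunit of calprotectin, had 3141, 3643 and 2785 units in moderate and 1538, 1466 and 3456 in mild swelling, and the groups overlapped (0.67 ± 0.54, adjusted p = 0.491). Il6 and Il1b overlapped as well, at -0.72 ± 0.34 and 0.16 ± 0.25 (adjusted p = 0.211 and 0.745).

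Vcam1, the endothelial and fibroblast receptor for leukocyte integrins, was 1 of 13 tested adhesion genes and the only one called (7.69%, near the 6.59% of all genes). Its signals were 813, 1002 and 932 in moderate swelling, against 448, 246 and 525 in mild swelling, without overlap. It rose by 1.20 ± 0.22 and stayed called in all 6 fits (adjusted p up to 0.0399 when 1 array was left out). Of 12 tested complement genes 2 were higher (16.7%, against 3.21% of all genes) and no member was lower. They were the proteases C1ra and C1s1 of the first component, at 1.12 ± 0.29 and 1.31 ± 0.35. The C1ra call was lost without any 1 moderate array or mild replicate 1 or 2 (0.76 to 1.27, adjusted p 0.0533 to 0.177), and the C1s1 call without any 1 moderate array or mild replicate 2 (0.75 to 1.44, adjusted p 0.0598 to 0.143). Sdc1, a cell surface proteoglycan of plasma cells and epithelia that stood in the list of B cell and plasma cell markers, gave 1137, 1286 and 921 units in moderate against 306, 281 and 687 in mild swelling and rose by 1.46 ± 0.26, called in all 6 fits. The other 10 tested members of that list were not called, so its share was 9.09%, near the 6.59% of all genes. The list median was -0.09.

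Genes of mitochondrial respiration had the most calls of any list, all of them lower in moderate swelling. Of 25 tested oxidative phosphorylation genes 18 (72%) were lower and 0 higher, against 3.38% of all genes lower. Every difference was negative, and 24 members had all moderate arrays below all mild arrays, against 12.5% of all genes. The median was -0.63, or -0.51 without mild replicate 2. Cox7a1, the cytochrome oxidase subunit of heart and skeletal muscle, had 374, 578 and 418 units in moderate swelling, against 1365, 2182 and 914 in mild swelling. Its difference of -1.60 ± 0.26 was the largest of the list and stayed called in all 6 fits (adjusted p up to 0.0274 when 1 array was left out). Atp5g1, which encodes a subunit of ATP synthase, fell by 0.82 on the log2 scale and Sdha, the catalytic subunit of succinate dehydrogenase, by 0.74. The Atp5g1 call held in all 6 fits, and that of Sdha was lost without mild replicate 2 (-0.56, adjusted p = 0.0549). The other 15 called members, which include subunits of NADH dehydrogenase, succinate dehydrogenase, the cytochrome bc1 complex and ATP synthase, lay between -0.87 and -0.47. With 1 array left out, 2 to 22 members were called lower, the fewest without mild replicate 2 and the most without mild replicate 3. Scaling on hybridization controls, which moved the median of all genes to -0.11, against 0.01, left 1 called, and over all settings the list median lay at -0.83 to -0.51. The sums of the 7 muscle markers overlapped between the groups, but 2 of them, the myosins Myh2 and Myh7, averaged 506 and 91.1 units in moderate and 1750.0 and 371 in mild swelling, and the part of muscle content or fibre type in these values was not tested.

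The same direction was seen in fuel metabolism. Of 23 tested fatty acid oxidation and TCA cycle genes 8 were lower (34.8%, against 3.38% of all genes) and 0 higher, with a median of -0.52. Pdk4, a kinase that inhibits pyruvate dehydrogenase, had 3862, 2728 and 3270.5 units in moderate and 5564, 5045 and 5459.5 in mild swelling. Its difference was -0.71 ± 0.14, with a call lost without moderate replicate 2 (-0.59, adjusted p = 0.0543). Mdh2, a malate dehydrogenase, differed by -0.60 ± 0.13 and Acadm, the medium-chain acyl-CoA dehydrogenase, by -0.81 ± 0.18, and the Mdh2 call was lost without mild replicate 1 (-0.57, adjusted p = 0.0548) or without mild replicate 2 (-0.54, adjusted p = 0.0664), the Acadm call without mild replicate 2 (-0.61, adjusted p = 0.0736) or without moderate replicate 2 (-0.79, adjusted p = 0.0608). Of 18 tested members of the glycolysis list 5 were lower (27.8%, against 3.38% of all genes) and 0 higher. Fbp2, the muscle fructose bisphosphatase, fell most, though this member of the list is an enzyme of gluconeogenesis. It had 179, 214 and 124 units in moderate and 860.1, 1389.6 and 533 in mild swelling and a difference of -2.25 ± 0.31. Hk2, hexokinase of insulin-sensitive tissue, gave 1272, 1393 and 1039.7 units in moderate against 2323, 2524 and 2049.8 in mild swelling and fell by 0.89. Both stayed called in all 6 fits, with no overlap of the groups. Pfkm, the muscle phosphofructokinase, Pgam2 and Tpi1 were the other 3 called members, from -0.84 to -0.64. The Pfkm call was lost without mild replicate 2 (-0.53, adjusted p = 0.0784). Without mild replicate 2, 1 fatty acid oxidation and TCA cycle gene and 2 members of the glycolysis list were called lower, and scaled on hybridization controls 0 and 1.

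**Figure D4:**
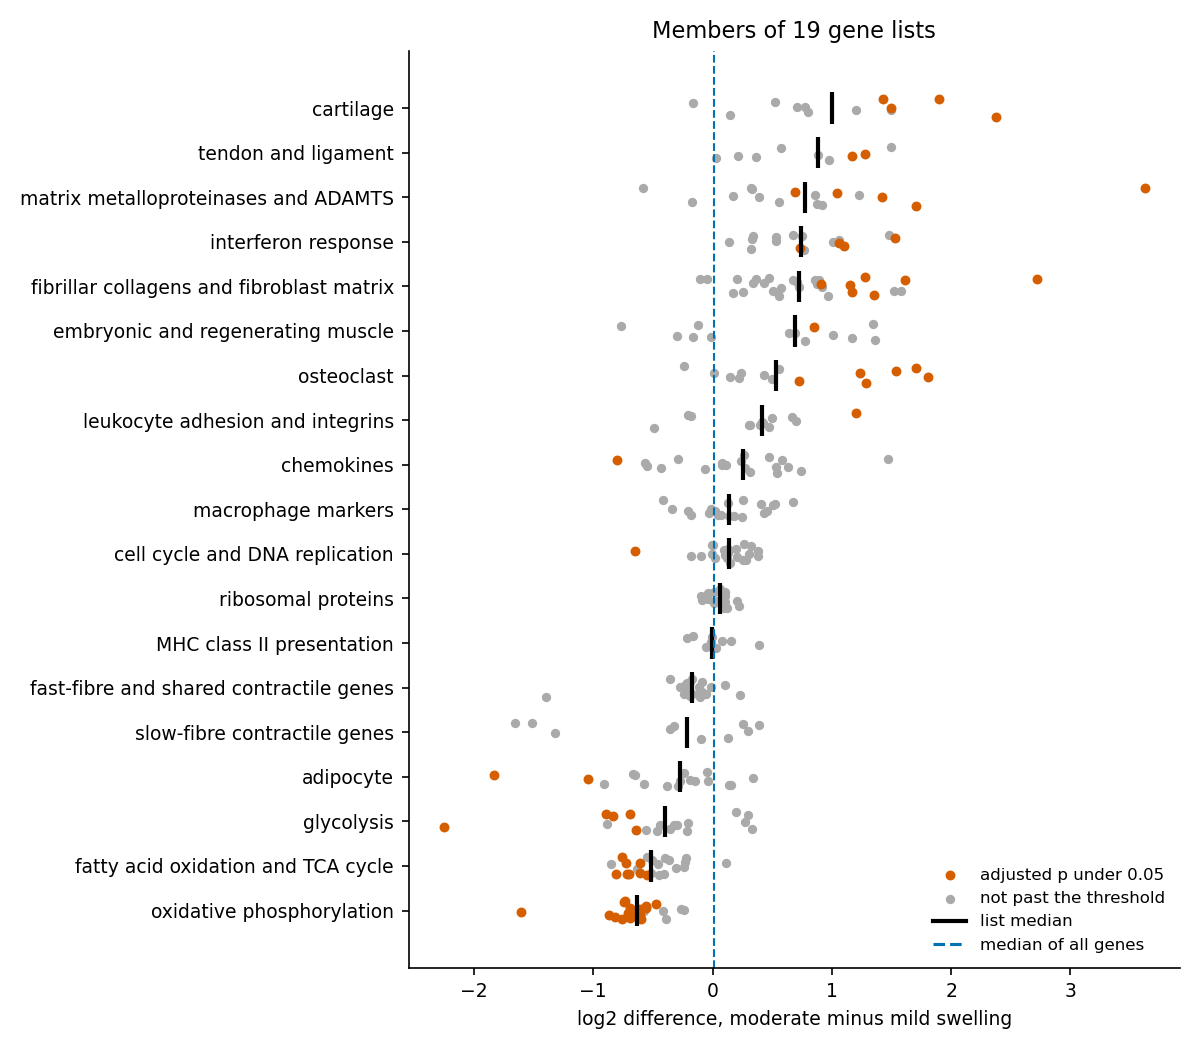
Log2 difference, moderate minus mild, of each tested member of 19 gene lists (orange called at an adjusted p under 0.05, grey not called), with black bars for list medians and a dashed blue line for the median of all genes (0.01). All members of the oxidative phosphorylation list lie below 0 and all interferon response members above it.

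Of 21 tested fast-fibre and shared contractile genes 0 were called with limma, against 3.38% of all genes called lower. At an unadjusted p under 0.05 there were 0 as well, against 23.7% of all genes. Of the 21 differences 19 were negative, and the median of -0.17 turned positive without moderate replicate 1. Acta1, the skeletal muscle actin, had 5147, 10148 and 7256 units in moderate and 8012, 7124 and 7989 in mild swelling, a difference of -0.09 ± 0.21 (adjusted p = 0.846). Of 10 tested slow-fibre genes 0 were called and 1 was lower at an unadjusted p under 0.05, which 23.7% of all genes reached. The slow-fibre median was -0.21 and turned positive without moderate replicate 2, mild replicate 1 or mild replicate 2. Without mild replicate 3 or scaled on hybridization controls, 3 slow-fibre genes and 1 fast-fibre gene were called lower, and with the mean of probe sets 3 fast-fibre genes. Myh7, the slow myosin heavy chain, had 124, 44.6 and 104 units in moderate and 575, 503 and 35.7 in mild swelling, with mild replicate 3 below every moderate array. Its difference of -1.32 ± 0.88 (adjusted p = 0.394) was thus smaller than 2 of its standard errors. Myh2, the heavy chain of oxidative fast fibres, had the same pattern, with 416, 580.1 and 523 units in moderate against 2274, 2562 and 412 in mild swelling.

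**Figure D5:**
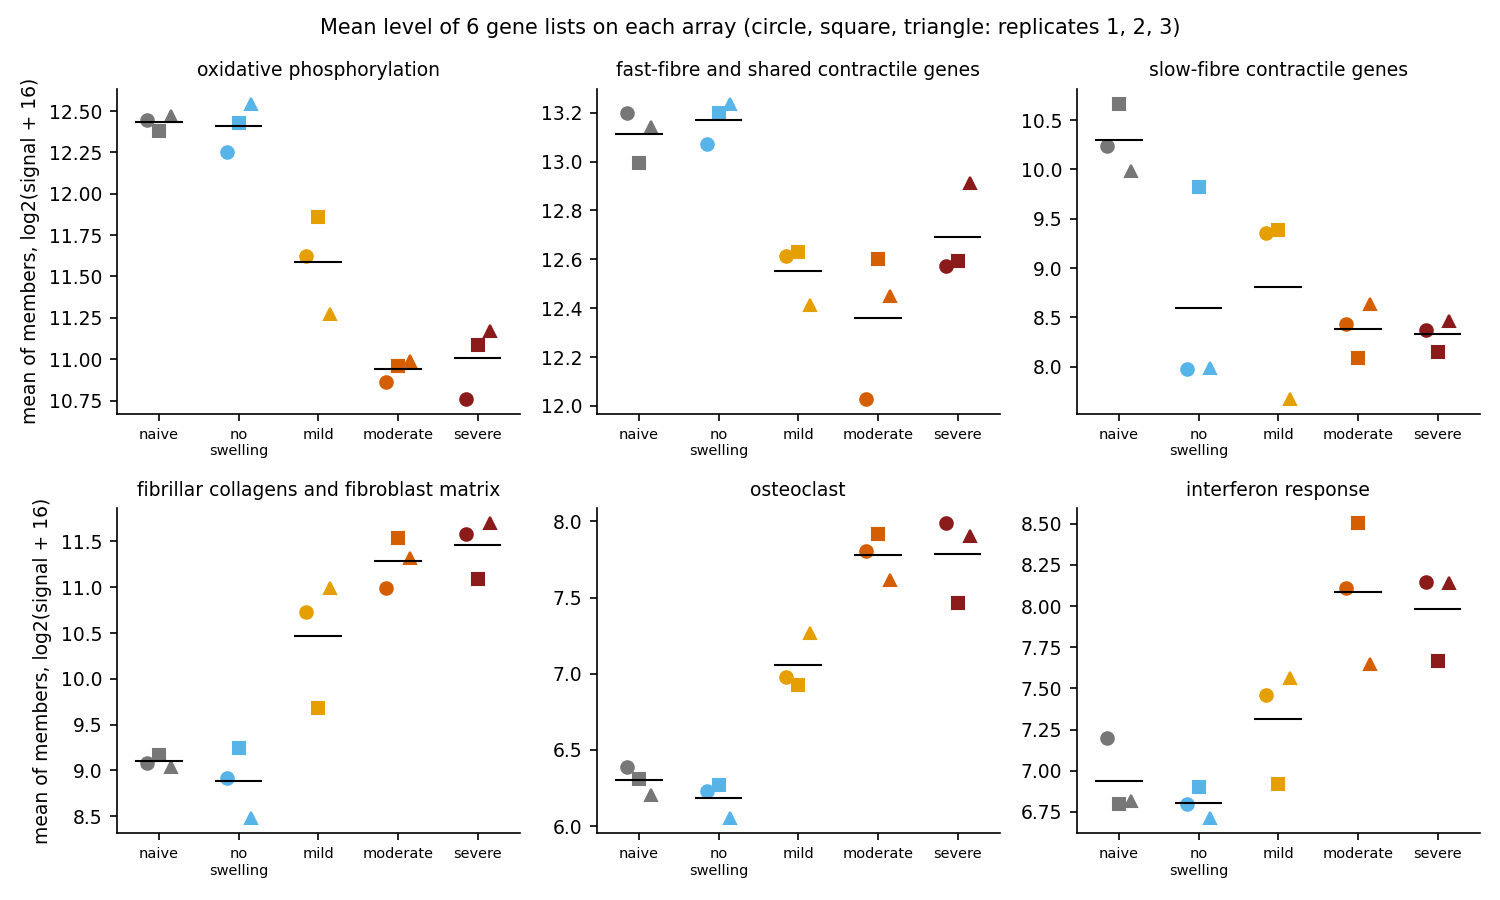
Mean log2(signal + 16) of the members of 6 gene lists on each array, in the 5 groups in order of severity, with shapes for replicates and bars for group means. Moderate arrays lie below mild ones for oxidative phosphorylation and above them for osteoclast, interferon response and fibroblast matrix genes (with moderate replicate 1 and mild replicate 3 at nearly the same level in the last), while contractile genes overlap.

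Sln stood out among the muscle genes. It encodes sarcolipin, a small inhibitor of the calcium pump of the sarcoplasmic reticulum, and had 1957, 1625 and 2958 units in moderate swelling, against 222, 202 and 90.3 in mild swelling. Every moderate value lay far above the highest mild value, and the difference of 3.59 ± 0.59 (adjusted p = 0.00496) stayed called in all 6 fits, being 3.74 without mild replicate 2. In severe swelling Sln had 1306, 2396 and 395 units, so severe replicates 1 and 3 were lower than any moderate array. Sln was the only called gene among 13 tested atrophy and denervation genes (7.69%, near the 6.59% of all genes). Fbxo32 and Trim63, the ubiquitin ligases atrogin-1 and MuRF1 of muscle wasting, were not called, at -1.13 ± 0.36 (adjusted p = 0.0718) and -0.52 ± 0.32 (adjusted p = 0.341). Among 13 tested embryonic and regenerating muscle genes 1 was called, as higher (7.69%). Their median was 0.69 (0.62 without mild replicate 2), and 8 differences were positive. Moderate arrays lay wholly above mild ones for 6 members, against 14.2% of all genes. At an unadjusted p under 0.05, which 23.7% of all genes reached, 7 members were higher and 1 lower. The called gene was Mymk, which drives myoblast fusion. It had 66.9, 55 and 64.3 units in moderate and 29.1, 27.5 and 25.2 in mild swelling and differed by 0.85 ± 0.18. That call was lost without mild replicate 2 (0.85, adjusted p = 0.0557) or without moderate replicate 3 (0.83, adjusted p = 0.052). Embryonic myosin Myh3 differed by 1.17 ± 0.34 (adjusted p = 0.0509) with no overlap, and Myod1, the myogenic master regulator, by -0.01 ± 0.32.

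The 12 largest increases also held secreted and membrane proteins outside these lists. Aqp5, a water channel of secretory glands, had 132, 194 and 144 units in moderate swelling, against 27, 5.7 and 39 in mild swelling, and rose by 2.20 ± 0.31 in all 6 fits. Kng1, the kininogen from which bradykinin is cut, gave 195, 279 and 212 units in moderate against 43.9, 11.9 and 100.2 in mild swelling, and Kcnj15, an inward rectifier potassium channel, 329, 460 and 469 units in moderate against 115, 27.6 and 205 in mild swelling. They differed by 2.06 ± 0.38 and 1.99 ± 0.39, both in all 6 fits. On mild replicate 2 the signals of these 3 genes (5.7, 11.9 and 27.6) lay below the array's 40th percentile of 29.4, so the pseudocount of 16 bears on the size of their differences. Ecrg4, a secreted peptide precursor, Smoc1, a calcium-binding matrix protein, Chil1, a chitinase-like protein of inflamed joints, and C1qtnf3, a C1q and TNF related protein, differed by 2.37 ± 0.56, 2.16 ± 0.43, 2.14 ± 0.46 and 1.99 ± 0.43. Their groups did not overlap, as the rule for the 12 largest required. The Ecrg4 call was lost without moderate replicate 2 (2.29, adjusted p = 0.0839) or without moderate replicate 3 (2.25, adjusted p = 0.0705), that of Smoc1 without moderate replicate 2 (1.99, adjusted p = 0.0525), that of Chil1 without mild replicate 2 (1.76, adjusted p = 0.0823) or without moderate replicate 2 (1.90, adjusted p = 0.0721) and that of C1qtnf3 without mild replicate 2 (1.40, adjusted p = 0.0582) or without moderate replicate 3 (1.61, adjusted p = 0.0623).

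The 12 largest decreases included muscle genes of metabolism and calcium handling. Smox, spermine oxidase, had 293, 356 and 199.8 units in moderate swelling, against 1232, 2544 and 849.5 in mild swelling, and fell by 2.27 on the log2 scale. Ckmt2, the mitochondrial creatine kinase of sarcomeres, gave 739, 841 and 679 units in moderate against 3296, 4255 and 1716 in mild swelling and fell by 1.92. Mylk4, a kinase of the myosin light chain kinase family, gave 504, 852 and 524 units in moderate against 1994, 3826 and 1824 in mild swelling, with a difference of -1.96 ± 0.25. In these 3 genes the highest moderate value was below the lowest mild value, as the rule for the 12 largest required. Their calls held in all 6 fits. Tlcd3b (-2.51 ± 0.33) had the largest decrease of all genes tested, followed by Dhrs7c (-2.45 ± 0.40), an enzyme of the sarcoplasmic reticulum, and Mlf1 (-2.32 ± 0.33). The calls of these 3 and of Mettl21e (-2.18 ± 0.35), a muscle methyltransferase, held in all 6 fits. Smco1 (-2.10 ± 0.42) and Lrrc38 (-2.01 ± 0.41), an auxiliary subunit of potassium channels, were also called, with the Smco1 call lost without moderate replicate 2 (-1.84, adjusted p = 0.0567) and the Lrrc38 call without mild replicate 2 (-1.48, adjusted p = 0.0555). Among 17 tested adipocyte genes, 2 were lower (11.8%, against 3.38% of all genes). They were the lipid droplet gene Plin4 (-1.83 ± 0.42) and the glucose transporter Slc2a4 (-1.04 ± 0.26), which muscle also expresses. The Plin4 call was lost without moderate replicate 3 or mild replicate 1 or 2 (-1.86 to -1.18, adjusted p 0.052 to 0.0801), and the Slc2a4 call without any 1 moderate array or mild replicate 1 or 2 (-1.13 to -0.67, adjusted p 0.0553 to 0.118).

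Some of the lower genes had signals in mild swelling above those of naive joints. Prkg1, a cGMP-dependent protein kinase, had 467, 277 and 242 units in moderate and 1383, 1152 and 1053 in mild swelling, while naive joints had 496, 566 and 492. It fell by 1.86 on the log2 scale (SE 0.21) and stayed called in all 6 fits (adjusted p up to 0.00949 when 1 array was left out). Rrad, a small GTPase that inhibits calcium channels, had 1018, 598 and 472 units in moderate, 3168, 2230 and 2461 in mild and 47.6, 47.7 and 55 in naive joints. Its difference was -1.95 ± 0.43 with no overlap, and the call was lost without moderate replicate 2 or 3 or mild replicate 1 or 2 (-2.05 to -1.71, adjusted p 0.0554 to 0.0681). Srxn1, which repairs oxidized peroxiredoxins, and Gclm, a subunit of the enzyme that starts glutathione synthesis, are targets of the oxidant sensor NRF2. Srxn1 had 291, 211 and 215 units in moderate swelling, against 589, 473 and 453 in mild swelling and 405, 361 and 349 in naive joints, and fell by 1.04 in all 6 fits. Gclm, whose mild and naive signals overlapped, had 153, 212 and 204 units in moderate, 388, 267 and 372 in mild and 533, 295 and 424 in naive joints. It differed by -0.80 ± 0.20, with a call lost without any 1 moderate array or mild replicate 1 (-0.88 to -0.66, adjusted p 0.0598 to 0.101). Srxn1 and Gclm were the 2 lower members (11.8%, against 3.38% of all genes) among 17 tested NADPH oxidase and antioxidant genes. The fibroblast oxidase Nox4 was the 1 higher member (0.92 ± 0.23), or 5.88%, against 3.21% of all genes. The Nox4 call was lost without moderate replicate 2 or 3 or mild replicate 2 (0.61 to 0.92, adjusted p 0.0905 to 0.14). Heat shock and chaperone genes had 1 lower member in each of 2 lists, Hspb1 (-0.80 ± 0.21) and the ER chaperone Dnajb9 (-0.61 ± 0.14). These were 5.26% and 5% of the tested members, near the 3.38% of all genes. The Hspb1 call was lost without moderate replicate 1 or 3 or mild replicate 1 or 2 (-0.90 to -0.53, adjusted p 0.0666 to 0.128). The Dnajb9 call was lost without moderate replicate 2 or 3 or mild replicate 1 or 2 (-0.62 to -0.51, adjusted p 0.062 to 0.0905).

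A few vascular and signalling genes were called, where 3.21% of all genes were higher and 3.38% lower. The single lower members of the endothelial (5.26%), TGF-beta (4.35%) and cell cycle (4.55%) lists lay near that share. Of 19 tested endothelial and angiogenesis genes 2 were higher (10.5%) and 1 lower. Emcn, a sialoprotein of venous and capillary endothelium, had 358, 503 and 417 units in moderate and 254, 198 and 234 in mild swelling, with no overlap, and rose by 0.85 ± 0.15 in all 6 fits. Cdh5, the cadherin of endothelial junctions, differed by 0.54 ± 0.15 and Vegfa, the main angiogenic growth factor, by -0.64 ± 0.18. The Cdh5 call was lost without any 1 moderate array or mild replicate 1 or 2 (0.49 to 0.56, adjusted p 0.0934 to 0.165), and the Vegfa call without moderate replicate 2 or 3 or mild replicate 1 or 2 (-0.72 to -0.43, adjusted p 0.0697 to 0.213). Mylk, the myosin kinase of smooth muscle, was the only called gene of 9 tested pericyte and smooth muscle genes (0.75 ± 0.13, in all 6 fits). Among 15 tested Wnt pathway genes, the secreted modulator Dkk3 (1.66 ± 0.32) and the receptor Fzd1 (0.97 ± 0.20) were higher, and both lost the call without moderate replicate 2 (1.45, adjusted p = 0.0513 and 0.96, adjusted p = 0.055). Of 23 tested TGF-beta, activin and BMP genes, Tgfb3 (0.62 ± 0.14), a ligand, and Ltbp1 (0.85 ± 0.21), which stores latent TGF-beta in the matrix, were higher and the BMP antagonist Nog (-0.66 ± 0.18) was lower. The Tgfb3 call was lost without moderate replicate 2 or 3 or mild replicate 2 (0.56 to 0.60, adjusted p 0.0678 to 0.0708), the Ltbp1 call without moderate replicate 2 or 3 or mild replicate 1 or 2 (0.58 to 0.91, adjusted p 0.0587 to 0.14) and the Nog call without moderate replicate 2 or 3 or mild replicate 1 or 2 (-0.65 to -0.52, adjusted p 0.111 to 0.18). Among 8 tested protease inhibitor genes, which block MMPs and other proteases, 2 were higher and 1 lower. The higher ones were Timp2 (0.84 ± 0.24) and Slpi, described above, and the lower one was Timp4 (-1.13 ± 0.26). The Timp2 call was lost without moderate replicate 2 or 3 or mild replicate 1 or 2 (0.64 to 0.92, adjusted p 0.087 to 0.233). The Timp4 call was lost without moderate replicate 2 or 3 or mild replicate 2 (-1.11 to -0.90, adjusted p 0.0589 to 0.107). Of 22 tested cell cycle and DNA replication genes, Aurka, a mitotic kinase, was lower (-0.65 ± 0.18), and none was higher. The Aurka call was lost without moderate replicate 2 or 3 or mild replicate 2 or 3 (-0.68 to -0.52, adjusted p 0.0571 to 0.194).

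The step from mild to moderate swelling was then set against the steps before and after it, by the difference between 2 steps in 1 model. Both steps of each such test share arrays, those of mild swelling or those of moderate swelling. Against the step from no swelling to mild swelling, the moderate minus mild difference was more positive in 26 genes (0.182%) and more negative in 209 (1.46%) at an adjusted p under 0.05, and 2313 genes had an unadjusted p under 0.05. Cxcl5, a chemokine that draws neutrophils, had 81.7, 73.8 and 46 units with no swelling, 1059.6, 957 and 1716 with mild and 1875, 1729.9 and 1670.4 with moderate swelling. Its 2 steps were 0.54 ± 0.21 to moderate and 3.90 ± 0.21 to mild swelling, and they differed by -3.36 ± 0.36 (adjusted p = 0.00074). Has2, a hyaluronan synthase, had 29.5, 29.7 and 28.3 units with no swelling, 331, 301 and 333 with mild and 324, 165 and 208 with moderate swelling, and its steps differed by -3.39 ± 0.35. Ptgs2, the inducible cyclooxygenase that makes prostaglandins, had 44.7, 27.7 and 14.7 units with no swelling, 399.9, 306 and 506 with mild and 432, 258 and 171 with moderate swelling, a difference of -3.78 ± 0.50. These 3 genes were far higher in mild swelling than without swelling, and none of them was called between moderate and mild swelling (adjusted p = 0.132, 0.15 and 0.281). Mid1ip1, a regulator of fatty acid synthesis, turned round, with 1221, 917 and 899.6 units without swelling, 3349, 2700.3 and 2742 in mild and 2015, 1311 and 1115 in moderate swelling. In moderate swelling it fell by 1.02 on the log2 scale against mild swelling and stayed called in all 6 fits. Leaving out 1 array changed the number of such genes from 235 to 2 without mild replicate 1, 766 without mild replicate 2 and 15 without mild replicate 3, and to 259, 102 and 45 without moderate replicates 1, 2 and 3.

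Against the step from moderate to severe swelling, 0 genes had a different moderate minus mild step at an adjusted p under 0.05 with limma, and 1562 (10.9%) had an unadjusted p under 0.05. Without mild replicate 3 the count was 70. The 2 genes with the lowest p were Ajuba, a scaffold protein of cell junctions, and Gem, a small GTPase. Ajuba had 141, 109.6 and 112 units with mild, 191, 192 and 200.4 with moderate and 124, 116 and 127 with severe swelling. Gem had 107, 79.3 and 95.7 units with mild, 179.7, 169.9 and 216 with moderate and 136, 128 and 104 with severe swelling. In both genes the 3 moderate arrays were above all mild and all severe arrays, and the steps differed by 1.24 ± 0.22 and 1.46 ± 0.27 (adjusted p = 0.234 for both). Between moderate and mild swelling alone Ajuba differed by 0.63 ± 0.13 and Gem by 0.90 ± 0.15, and the Ajuba call was lost without mild replicate 2 (0.57, adjusted p = 0.0572). No gene was called between severe and moderate swelling, where 885 (6.18%) had an unadjusted p under 0.05.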

How the data were processed

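Total RNA of knee joint synovium was biotin-labelled and hybridized to Affymetrix mouse arrays, per the labels' protocols. The deposited values are signal intensities on a linear scale that the authors made with MAS5, per the submitters' processing notes, whose version and scaling target are not given in the sources used here. MAS5 subtracts mismatch probe signal, which makes dim values noisy. The mean of each array's signals without the top and bottom 2% was between 149.4 and 150, so the arrays share 1 scale.

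The values were taken as log2(signal + 16). Of 45101 probe sets, 34958 had 1 gene symbol in the platform annotation, 932 several and 9211 were unnamed here. Each of 18194 genes was represented by its probe set with the highest mean, which can disagree with others: of 537 called genes with other probe sets, 185 had another one called in the same direction and 1 in the opposite one. Among the named genes, Kng1, Atp6v0d2, Atp5g1, Gbp2, Fzd1 and Cdh5 each had 1 other tested probe set, which was not called. A gene was tested when its signal passed the array's 40th percentile on at least 3 of 15 arrays, which 14310 genes did. Group means of all 5 groups were fitted with limma 3.58.1 in R 4.3.3, with an intensity trend and two-sided tests, and p-values were adjusted by Benjamini-Hochberg over all genes tested. The fit had 10 residual and 5.56 prior degrees of freedom. Exact permutation of 3 against 3 arrays cannot go below 0.1, so single genes were tested with limma only.

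The genes named were the 12 largest differences in each direction among called genes with groups that do not overlap, the 3 members of each of 46 lists with the lowest p, and the 4 lowest p of each difference between steps (2 where none was called). Other genes are named for comparison and were chosen after their values were seen, among them Mmp2, Mmp3, Mmp23, Col1a1, Col2a1, Col3a1, Comp, Prg4, Csf1r, Cxcl10, S100a8, Il1b, Il6, Acta1, Myh2, Myh3, Myod1, Fbxo32 and Trim63. The members and lists were chosen with earlier results of these data known. Of 769 listed genes 656 were tested, 53 were below the filter and 60 had no probe set with 1 symbol; 49 of the 656 were higher and 43 lower.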

Additional observations from a re-analysis of the deposited data

Results flagged for a closer look

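Of 5488 tested probe sets without a single gene symbol, which entered none of the gene comparisons, 70 were higher and 74 lower in moderate than in mild swelling in the fit of every probe set. The 2 largest increases belonged to probe sets 1452417_x_at and 1457042_at, and they are given here because they lie outside the tested genes. Probe set 1452417_x_at had 358, 1295 and 405 units in moderate swelling, against 148, 14.1 and 194 in mild swelling, a log2 difference of 2.545 ± 0.68 (SE, adjusted p = 0.0436 with limma). Its naive signals were 19.5, 16.7 and 17.7. Probe set 1457042_at had 293, 535 and 529.8 units in moderate and 158, 50.2 and 173 in mild swelling, a difference of 1.804 ± 0.32 (adjusted p = 0.00835), with 31.5, 37 and 23.5 in naive joints. In both, the moderate arrays lay wholly above the mild ones and mild replicate 2 was lowest of the 6. The 2 largest decreases, of probe sets 1416835_s_at and 1458081_at, were -2.64 and -2.24.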

How the results depend on the processing

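The number of genes called depended more on which arrays entered and on how the spread was pooled than on the pseudocount, the filter at the 60th percentile or the use of the mean of probe sets, under which the counts stayed within 1.5 times. With all arrays 459 genes were higher and 484 lower, 235 differed in step from the change between mild and no swelling and 0 from the change between severe and moderate swelling. Leaving out 1 moderate or mild array gave 78 to 1056 higher genes, 118 to 953 lower genes, 2 to 766 genes for the first difference of steps and 0 to 70 for the second. With only the groups of each contrast in the fit, the counts were 7 higher, 21 lower and 29 for the first difference of steps. Scaled on 9 hybridization control probe sets they were 92, 138, 867 and 16. Array quality weights, whose estimation stopped before its tolerance was met, gave 2312, 2249, 5379 and 168. Gene-by-gene array weights, chosen after seeing the data, gave 1074 higher, 1061 lower and 1824 for the first difference of steps. The first difference of steps also moved to 127 without a filter, 52 with array medians aligned and 101 without the intensity trend, and every probe set tested by itself gave 820 lower ones. Replicate numbers did not pair the samples: same-numbered moderate and mild arrays correlated at -0.113, -0.207 and -0.153 in their deviations. With the replicate number as a block 304 genes were higher, 382 lower and 123 differed in the first difference of steps. Of the 81 called genes picked by the naming rule, 71 lost their call with only the groups of the contrast, 43 without moderate replicate 2, 41 on hybridization controls, 40 without mild replicate 2 and 1 without mild replicate 3, and 0 reversed. The cause was not tested. Signals below the 40th percentile, 23.4 to 29.4 units on these arrays, limit what can be said of dim genes.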

Other observations

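Prostaglandin signalling and collagen processing had a few called genes besides those described. Ptger4, a receptor for prostaglandin E2, had 615, 769.6 and 704 units in moderate swelling, against 351, 203 and 531 in mild swelling, and rose by 1.01 ± 0.24. Pla2g7, a phospholipase of macrophages that inactivates platelet-activating factor, differed by 0.69 ± 0.19. They were the 2 higher of 17 tested prostaglandin and leukotriene genes, against 3.21% of all genes, and 0 were lower. Crtap, a cofactor of collagen prolyl hydroxylation, was the only called gene of 16 tested collagen processing genes, at 0.91 ± 0.25, and 14 of the 16 differences were positive. The Ptger4 call was lost without moderate replicate 2 or 3 or mild replicate 1 or 2 (0.66 to 1.04, adjusted p 0.0636 to 0.108), the Pla2g7 call without moderate replicate 1 or 2 or mild replicate 1 or 2 (0.51 to 0.70, adjusted p 0.101 to 0.223) and the Crtap call without any 1 moderate array or mild replicate 1 or 2 (0.57 to 1.003, adjusted p 0.0697 to 0.209).

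Several groups had 0 called members. These were 15 circadian clock genes, 14 of cholesterol synthesis and uptake, 15 ribosomal proteins, 10 T cell and NK cell markers, 8 mast cell markers, 6 nerve genes, 5 erythroid genes, 5 skin genes and 4 granule genes of marrow progenitors. Their median differences lay between -0.09 and 0.495, and those of circadian, skin and ribosomal genes turned negative when scaled on hybridization controls. At an unadjusted p under 0.05, 0 to 4 members of each passed with limma, where 23.7% of all genes did. The nerve genes did not share a direction. Pmp22, a myelin protein that other cells also express, had 1194, 1286 and 1149.9 units in moderate and 933, 666 and 998 in mild swelling (0.49 ± 0.16, adjusted p = 0.0701). Mbp, another myelin protein, had 87.4, 55.4 and 86.9 units in moderate and 102, 116 and 109 in mild swelling (-0.45 ± 0.25, adjusted p = 0.285). The groups did not overlap in either gene.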
